A study of Sardinops sagax and Scomber japonicus with 20 samples.

Results

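Tropomyosins are coiled-coil proteins that lie end to end along the actin filament and decide which myosins and actin-binding proteins can reach it. In striated muscle they work with the troponin complex as the calcium switch of the thin filament, while other isoforms from the same genes stabilise the actin cytoskeleton of most cells, those of the liver included. TPM1 gives the alpha chain of heart and fast muscle, TPM2 the beta chain, TPM3 the chain of slow muscle and several cytoskeletal isoforms, and TPM4 mainly cytoskeletal ones; these roles are known from mammals. All rows with the human symbol TPM1, TPM2, TPM3 or TPM4 were taken from the result tables of liver RNA sequencing in 2 marine fish. There were 14 such rows among 15907, with 7 of the 6716 rows in the sardine table and 7 of the 9191 rows in the mackerel table. The word tropomyosin stood in the description of 7 rows in each species, the same number as found by symbol. The 2 sets were compared by number only, not row by row. The symbols were chosen by their fold changes in sardine, which earlier results of these data had shown to be large, so the members' fold changes and p-values are given as a description and not as tests of a question.

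The study sequenced liver RNA of wild-caught adult males of Sardinops sagax, the Pacific sardine, and Scomber japonicus, the chub mackerel, bought from a live bait dealer and held at about 17 °C. In each species 5 fish were kept for 5 h with 12.5 pM 17α-ethynylestradiol (EE2), a synthetic estrogen used in oral contraceptives, and 5 unexposed fish were the controls. The labels name no tank or pooling of fish, and the sources used here do not say whether the unexposed fish received a solvent. Each table is the authors' comparison of these groups, with a mean normalized count, a log2 fold change with its standard error (SE) and a p-value per row, and without values per fish. It does not record which group is the numerator, so rows are described here as higher on the positive or on the negative side of the fold change. Rows with an adjusted p under 0.05 in that table of the authors are the called rows.

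The deposited means were sums of whole numbers times fixed steps, and these whole numbers, called recovered reads, give values behind the means. In sardine a mean was made of 5 numbers for the positive side, taken here as 5 libraries, and of a single number for the negative side. The fold changes fitted these numbers with the single negative number given as much weight as all positive libraries together (median difference 0.02 on the log2 scale over 316 rows, against 2.34 if it counted as 1 library of 6). In mackerel each side was 1 number. The negative side of sardine and both sides of mackerel therefore show no spread between fish, and the SE printed below does not hold that spread. Of 738 resolved sardine rows with at least 5 reads on each side, 77.9% had an SE below the counting error of their recovered reads, and 0 did if the negative number was counted 5 times. The tropomyosin rows among them had SEs of 0.351 to 0.420, each above its counting error (0.297 to 0.389). In mackerel 83.2% of 2048 such rows had an SE below the counting error, with a median of 0.417 times that error. With the mackerel numbers counted 5 times, 58.0% of these rows still had an SE below it. The counting error is that of a plain ratio of reads. Some mackerel fold changes were smaller in size than that ratio, and the effect of this on these shares was not tested. Whether 1 library was entered 5 times is not recorded in the tables. If it was, the authors' SEs and adjusted p-values treat a repeated library as 5 fish, and each p-value below is to be read with this limit. Recovered reads summed to 376343 (positive side) and 332486 (negative side) in mackerel, and to an estimated 125299 on the negative side in sardine. Hepatocyte markers held 23.9% of the positive-side and 9.78% of the negative-side normalized counts in sardine, and 13.6% and 17.3% of recovered reads in mackerel.

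In sardine 6 of the 7 tropomyosin rows were far higher on the negative side, by 155-fold to 577-fold by the authors' fold change in the 5 rows with reads on both sides. Together the 7 rows took 8.50% of the negative-side normalized counts and 0.0116% of those of the positive side. The 4 TPM3 rows held 81.9% of the tropomyosin counts on the negative side and 61.8% on the positive side. TPM1 and TPM4 held 11.9% and 6.22% on the negative side and 19.2% and 14.9% on the positive side. In bulk liver, fewer cells of a type and less RNA per cell cannot be told apart.

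The most abundant tropomyosin row was the TPM3 transcript NM_001024467.1. Its mean normalized count of 2553 in the authors' deposited table was rank 6 of the table, and its p-value was rank 1. An estimated 5757 recovered reads lay on the negative side. On the positive side 7 combinations of library numbers fitted the mean and the fold change, with 38 to 43 reads over the 5 libraries, so no value per library is given. The log2 fold change in the authors' deposited table was -9.17 ± 0.27 (SE; adjusted p 2.42e-246).

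A second TPM3 transcript, NM_131105.2, had 1593 recovered reads on the negative side. Its 5 positive-side libraries had 4, 5, 2, 2 and 4 reads. Scaled for depth, this was a normalized count of 1411 against 3.71 ± 1.32 (SD, n = 5), and no positive-side library came near the negative side. The authors' deposited table gave -8.55 ± 0.38 (SE) on the log2 scale, with an adjusted p of 1.16e-108.

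The TPM3 transcript NM_001002119.1 had 759 reads on the negative side. The positive-side libraries had 2, 7, 2, 2 and 1 reads, a normalized count of 2.88 ± 1.90 (SD, n = 5) against 672. The second library was the highest, and the others lay below the floor of 3 counts per library used in this report. The fold change of this row and its place among the paralogues rest on few positive-side reads. In the authors' deposited table the log2 fold change was -7.76 ± 0.42 (SE; adjusted p 3.07e-73).

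The remaining TPM3 transcript, NM_205676.1, had 616 reads on the negative side and 0 in each of the 5 positive-side libraries. Against a floor of 3 counts per positive-side library its positive side was at least 159-fold lower. Its log2 fold change of -12.48 ± 1.83 (SE; adjusted p 1.03e-09) in the authors' deposited table was the lowest of all sardine rows. That fitted value depends on how the authors' software treats a side at 0, and the bound is the value to use. With 616 negative-side reads it was close in depth to the TPM4 row, which did have positive-side reads.

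TPM1 was present as 1 transcript, NM_200934.2, with 1266 reads on the negative side and 5, 12, 2, 3 and 2 reads in the positive-side libraries. Its normalized count was 1121 on the negative side and 4.79 ± 3.27 (SD, n = 5) on the positive side, where the second library stood at 10.5 and the others at 2.59 to 4.10. The log2 fold change in the authors' deposited table was -7.75 ± 0.35 (SE; adjusted p 3.42e-104).

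TPM4 was also far higher on the negative side. It is mainly a cytoskeletal gene in mammals, and whether that holds for the zebrafish transcript counted here was not examined. NM_199675.1 had 663 reads on the negative side and 2, 6, 1, 8 and 0 on the positive side. Its normalized count was 587 against 3.73 ± 4.23 (SD, n = 5), so that the positive-side libraries spread more among themselves than for any other row with reads on both sides whose libraries could be resolved. The authors' deposited table gave -7.28 ± 0.42 (SE; adjusted p 5.05e-65), the weakest fold change of the 6 called rows. This place was sensitive to the fourth library, at 10.4. By recovered levels the negative side was 158 times the positive side, and 287 times without that library, above the 234 of TPM1 with all its libraries. Treated alike, TPM1 and TPM3 NM_001002119.1 stood at 334 and 326 without their own highest library, the second. TPM4 was then again below both.

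TPM2 had too few reads to show a direction. NM_001017910.1 had 0 reads on the negative side and 2, 1, 2, 0 and 0 in the positive-side libraries. Both sides were below the floor of 3 counts per library, so no fold is given. The authors' deposited table lists for it 4.36 ± 2.19 (SE) on the log2 scale, with an adjusted p of 0.0877, which did not pass the threshold.

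**Figure D1:**
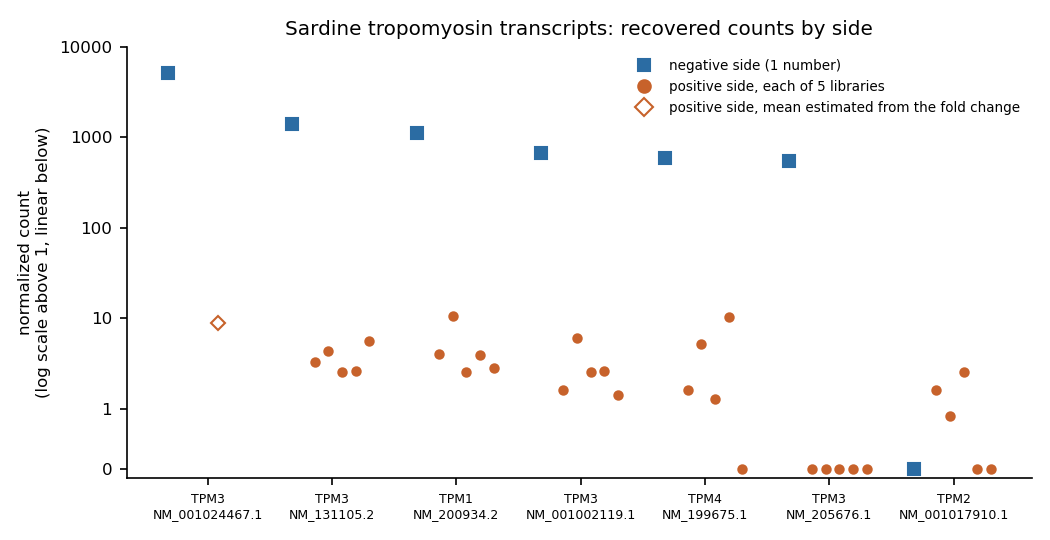
Normalized count (log scale above 1, linear below) of the 7 sardine tropomyosin transcripts, ordered by mean; squares are the single negative-side number, filled circles the 5 positive-side libraries, and the open diamond the estimated positive-side mean of the row whose libraries could not be resolved. In the first 6 rows the negative side lies between 545 and 5098 and every resolved positive-side library at 10.5 or below; TPM2 is at 0 on the negative side.

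Read against all rows, 6 of 7 tropomyosin rows were called negative in sardine where 16.1% of the 6600 rows with an adjusted p were, and 0 were called positive where 30.5% were. The choice of the symbols used this contrast, so nothing is read from the difference. The median log2 fold change of the 7 rows was -7.76 in the authors' deposited table, or -7.75 once the row at 0 was set to its bound, beside -0.19 over all rows. All 7 were curated RefSeq records, among which 21.8% were called negative. Where the mean was 10 or more, as for every tropomyosin row but TPM2, 30.4% of rows were called negative.

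The fold changes of the paralogues are set side by side as a description. Ordered by log2 fold change in the authors' deposited table, the 5 rows with reads on both sides ran from the most abundant TPM3 row at -9.17 over TPM3 NM_131105.2 at -8.55, TPM3 NM_001002119.1 at -7.76 and TPM1 at -7.75 to TPM4 at -7.28. Neighbours in this order lay within the interval given by their SEs. The most abundant TPM3 row and NM_131105.2 differed by -0.62 (95% interval -1.54 to 0.29), and TPM1 and NM_001002119.1 by 0.02 (-1.06 to 1.09). TPM1 differed from TPM4 by -0.47 (-1.54 to 0.60). The widest gap, between the most abundant TPM3 row and TPM4, was -1.89 (-2.87 to -0.92). It includes the TPM4 value, which was sensitive to the fourth library. Of the 10 pairs, 4 had an interval without 0, 3 of them with the most abundant TPM3 row. These intervals come from the authors' SEs, which hold no spread between fish of the negative side, and no test was made of pairs chosen with results known.

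**Figure D2:**
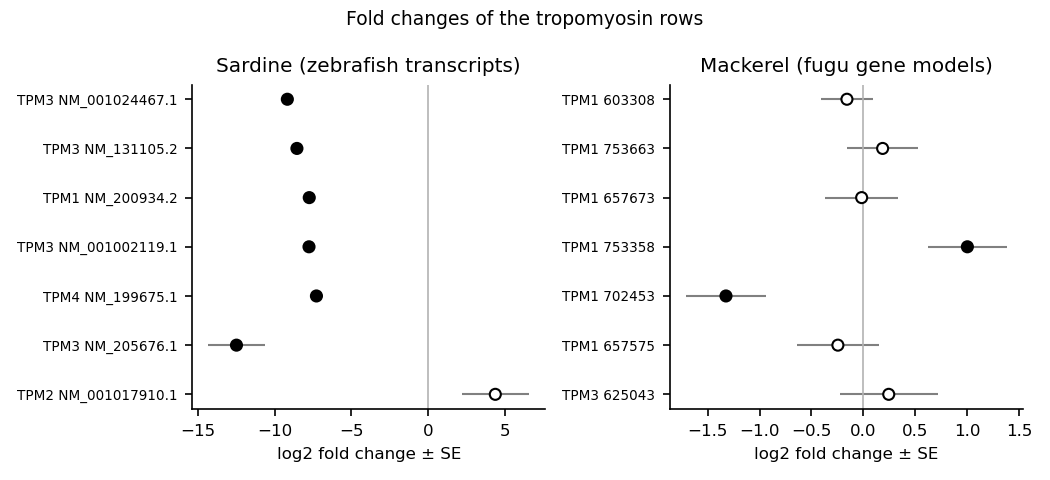
Log2 fold change with its SE in the authors' deposited tables for the 7 sardine transcripts (left) and the 7 mackerel gene models (right), ordered by mean normalized count; filled circles are called at an adjusted p under 0.05, and the 2 panels have different scales. Sardine values of called rows lie between -12.48 and -7.28, and mackerel values between -1.32 and 1.003.

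How the reads were shared among the tropomyosin transcripts limits these comparisons. Sardine reads were counted on zebrafish transcripts, and tropomyosin paralogues are close in sequence, so a read of one sardine gene could have been counted on another transcript. The sources used here name neither the aligner nor its handling of reads with several matches. The counts are also not divided by transcript length, which the table does not give, so the order of levels is one of counts and not of transcript numbers.

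Most rows of the partners of tropomyosin in the thin filament of striated muscle were also higher on the negative side. Of 25 rows for actins, troponins, leiomodins and nebulin, 19 were called negative and 2 positive, with a median log2 fold change of -6.64 (-5.48 with zero rows set to their bound). Over all sardine rows with an adjusted p, 16.1% were called negative and 30.5% positive. The most abundant row of cardiac troponin T, TNNT2, had a mean normalized count of 599.7. Its log2 fold change in the authors' deposited table was -11.17 ± 0.93 (SE). There the most abundant row of cardiac actin ACTC1 had 436.7 and -7.92 ± 0.40. That of the slow and cardiac troponin C, TNNC1, had 256.3 and -9.09 ± 0.71. TNNT2 NM_181499.3, at -0.47 ± 0.83 (adjusted p 0.616), was not called in that table. ACTC1 NM_001030209.1 was not called either, at -1.95 ± 1.23 (adjusted p 0.151). The 2 rows called positive were LMOD3 at 8.996 ± 1.896 and NEB at 6.929 ± 2.002. Their mean normalized counts were 15.6 and 3.54. These 25 rows took 4.15% of the negative-side counts, less than the 7 tropomyosin rows, and 0.0287% of the positive side. In the resolved rows the summed normalized count of the partners was 2286 on the negative side and 12.3 to 39.1 in the positive-side libraries. Tropomyosin had 4336 and 9.94 to 27.2 in its own resolved rows.

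Thick filament and Z-disc genes, which meet the thin filament in the sarcomere, had 18 of 26 rows called negative and 2 positive, with a median of -5.85 (-3.92 with zero rows set to their bound). The shares over all rows with an adjusted p were 16.1% negative and 30.5% positive. The cardiac myosin heavy chain MYH6 was at -10.36 ± 0.94 in the authors' deposited table. There the most abundant row of the atrial light chain MYL4 was at -10.69 ± 1.20 and that of the slow heavy chain MYH7 at -9.32 ± 0.80. The 2 rows called positive were a further MYH7 row at 4.75 ± 2.05 and a TTN row at 5.43 ± 2.00. Their mean normalized counts were 0.659 and 1.08. The most abundant TTN row was at -9.97 ± 1.21. The list held 3.19% of the negative-side counts and 0.00549% of those of the positive side.

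Genes that pair with tropomyosin outside striated muscle had medians nearer to 0, and differences between lists were not tested. Their counts of called rows stand beside 16.1% negative and 30.5% positive over all rows with an adjusted p. Smooth muscle contractile genes had 7 of 12 rows called negative and 2 positive, with a median of -1.56. The more abundant row of the light chain MYL9 was at -3.14 ± 0.47 in the authors' deposited table. The other MYL9 row was not called there, at -0.68 ± 0.59 (adjusted p 0.302). The list shares DES, the muscle intermediate filament gene, with the Z-disc list. The 2 DES rows stood in the authors' deposited table at -10.42 ± 1.21 and, with 0 reads on the positive side, -12.03 ± 1.84. Non-muscle actin filament genes had 11 of 31 rows with an adjusted p called negative and 7 positive and a median of -0.99. Cytoplasmic actin ACTB had no adjusted p and stood at -1.26 ± 0.32 in the authors' deposited table. ACTG1 stood there at -4.70 ± 0.25 and the more abundant row of the actin-severing CFL2 at -0.62 ± 0.32 (adjusted p 0.0877). The other CFL2 row was called negative in that table, at -2.41 ± 0.36 (adjusted p 1.46e-09). The fold changes of all 6 called tropomyosin rows, TPM4 included, were lower than that of ACTG1, the lowest of the non-muscle list at -4.70. The tropomyosin symbols were chosen by these fold changes and the list was not, so nothing is read from that order.

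Markers of other cell types are given from the same table, in which 46.5% of all rows were called in either direction. Endothelial and stellate markers had 9 of 12 rows called negative and 0 positive (median -3.28), leukocyte markers 4 and 2 of 14 (median -0.24), and erythrocyte markers 6 and 3 of 16 (median -1.16). Hepatocyte markers had 35 of 36 rows called positive and 0 negative (median 2.71, or 2.36 at the bound). Non-hepatocyte markers took small shares of the negative-side counts, with 0.123% for endothelial and stellate, 0.0823% for leukocyte and 0.771% for erythrocyte markers. Their part in the tropomyosin values was not tested.

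**Figure D3:**
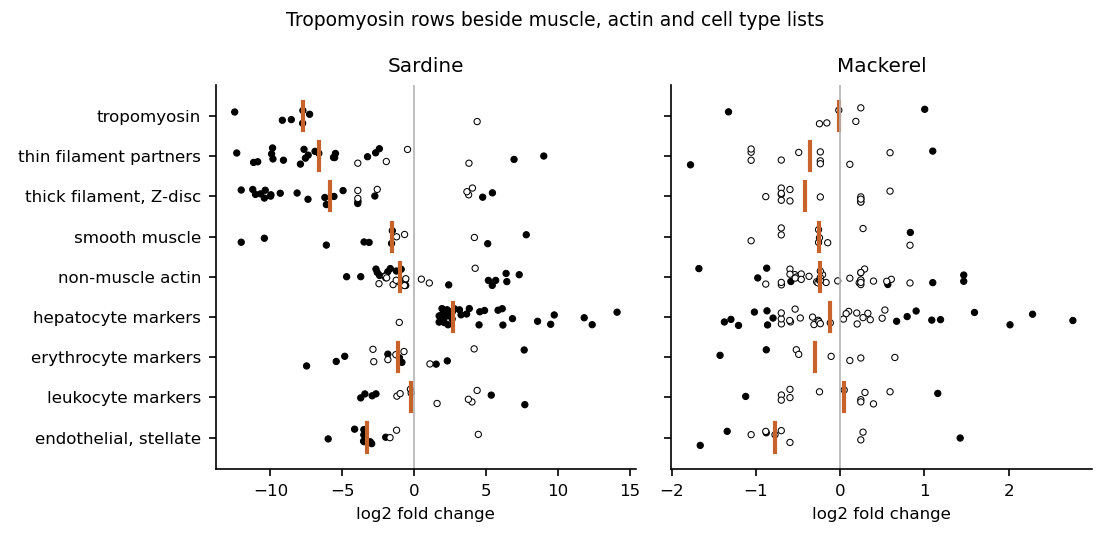
Log2 fold change of each row of the tropomyosin genes and of 8 lists of muscle, actin and cell type genes in sardine (left) and mackerel (right), on different scales; filled points are called at an adjusted p under 0.05, open points are not called or have no adjusted p, and bars are medians. In sardine the medians of tropomyosin (-7.76), thin filament partners (-6.64) and thick filament genes (-5.85) are the lowest; in mackerel all medians lie between -0.77 and 0.05.

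The sardine rows whose log2 fold change was nearest to that of the most abundant TPM3 row, among rows with a mean of at least 10, were TNNC1, FAM184A, NKX2-5, SLC8A1 and a MYH7 row. They lay 0.08 to 0.17 from it on the log2 scale, in this single comparison. NKX2-5 is a transcription factor of the heart and SLC8A1 the sodium-calcium exchanger of heart muscle. FAM184A, NKX2-5 and SLC8A1 rested on 46, 45 and 44 recovered reads on the negative side and 0 on the positive side, so their fold changes depend on how a side at 0 is treated.

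In mackerel, tropomyosin reads were few. The 7 gene models held 30 recovered positive-side reads and 24 negative-side reads, or 0.00797% (95% exact Clopper-Pearson interval 0.00538 to 0.0114) and 0.00722% (0.00462 to 0.0107) of all recovered reads, and these intervals overlap. They cover counting error only, since reads amplified by PCR and not tagged with molecular identifiers are not separate molecules. TPM1 accounted for 6 gene models and 53 of the 54 reads, TPM3 for 1 read, and no row carried TPM2 or TPM4. Of the 6 TPM1 models 5 were matched by the authors to the same human protein record and 1 to another.

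The best covered TPM1 model, 603308, had 11 positive-side and 10 negative-side reads. Its ratio of positive to negative side, scaled for depth, was 0.89 (95% exact interval 0.343 to 2.34). The log2 fold change in the authors' deposited table was -0.16 ± 0.25 (SE; adjusted p 0.691), within its error.

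Of the 6 tropomyosin models with an adjusted p, 2 were called, in opposite directions, where 24.8% of all 6319 rows were called, 10.8% negative and 14.1% positive. Model 702453 had 1 positive-side and 5 negative-side reads, a ratio of 0.162 (0.00342 to 1.45), and in the authors' deposited table a log2 fold change of -1.32 ± 0.38 (SE) with an adjusted p of 0.00462. Model 753358 had 6 reads against 1, a ratio of 4.85 (0.589 to 223), and a log2 fold change there of 1.003 ± 0.38 (SE) with an adjusted p of 0.0375. Both intervals of the recovered reads include a ratio of 1. An exact two-sided binomial test of the recovered reads gave p = 0.0958 and p = 0.14 for these models, called 0 of the 7 tropomyosin models after Benjamini-Hochberg adjustment over all rows and 0 at an unadjusted p under 0.05, and called 4.07% of all rows. The depth left this test little reach, since the models held at most 21 reads. The largest p it called was 0.00203, which only 2 of the 7 models would reach if all their reads lay on 1 side. The SEs of the called models, 0.38 each, compare with counting errors of 1.58 and 1.56 on the log2 scale. The counting errors are those of the plain ratio of reads, while the SEs belong to the authors' fold changes, which were smaller in size. How much of the gap comes from this was not tested.

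The other TPM1 models were not called by either test. Model 753663 had 5 positive-side and 3 negative-side reads, model 657673 had 4 and 3, and model 657575 had 2 and 2. Their log2 fold changes in the authors' deposited table were 0.19 ± 0.34, -0.02 ± 0.35 and -0.25 ± 0.40 (SE). The TPM3 model 625043 rested on 1 positive-side read and 0 negative-side reads, had no adjusted p, and is given no fold. Rows with the same pair of read numbers had the same fold change and SE, as 10 other rows did with the 11 and 10 reads of model 603308; the 5 with the lowest identifiers were NHP2, EPRS, STAT3, SLC12A4 and RAB5A.

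**Figure D4:**
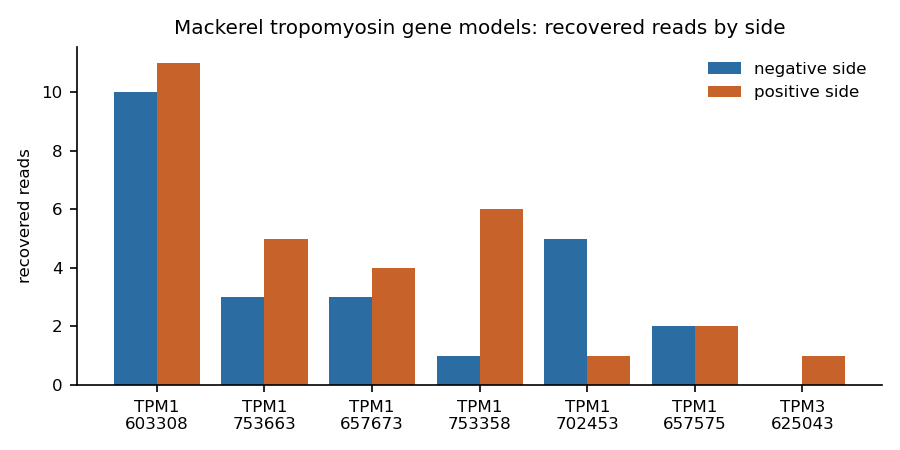
Recovered reads of the 7 mackerel tropomyosin gene models on the negative and positive side, ordered by mean normalized count. Only model 603308 has more than 6 reads on a side, with 10 and 11; the called models 753358 and 702453 differ by 6 against 1 and 1 against 5 reads.

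Muscle and actin lists were also thinly covered in mackerel. Over all mackerel rows with an adjusted p, 24.8% were called, 10.8% negative and 14.1% positive, and the counts of the lists are given beside these shares. Thin filament partners had 12 rows with 14 positive-side and 20 negative-side reads; of the 10 with an adjusted p, 1 was called negative and 1 positive. Thick filament and Z-disc genes had 14 rows with 11 and 12 reads; only 4 had an adjusted p, and 0 of these were called. Non-muscle actin filament genes were better covered, with 343 and 345 reads over 41 rows, of which 34 had an adjusted p and 4 were called in each direction, among them the Arp2/3 subunit ARPC1A with 30 reads against 84 and, in the authors' deposited table, a log2 fold change of -1.68 ± 0.24 (SE). Smooth muscle genes had 47 and 33 reads over 10 rows, 8 of them with an adjusted p, with 1 called positive, the myosin light chain kinase MYLK with 18 against 7 reads. Among rows with an adjusted p, hepatocyte markers were called negative in 7 and positive in 9 of 37 (median of all 39 rows -0.12), and endothelial and stellate markers in 3 and 1 of 9. Leukocyte markers were called in 1 and 1 of 9 such rows and erythrocyte markers in 2 and 0 of 7.

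Between the species, tropomyosin shares differed on the negative side. It was 8.50% of normalized counts in sardine and 0.00722% of recovered reads in mackerel, while the positive sides were at 0.0116% and 0.00797%. TPM1 stood at -7.75 in sardine and between -1.32 and 1.003 in mackerel in the authors' deposited tables. These fold changes are not on the same scale. The sardine ones fitted the recovered reads, while those of the called mackerel models were smaller in size than the ratios of their reads. Model 753358 stood at 1.003 on the log2 scale with a ratio of 4.85, and model 702453 at -1.32 with a ratio of 0.162. The tables were made on different reference transcripts and normalized separately, neither records which side is the exposed one, and no difference between species was tested.

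**Figure D5:**
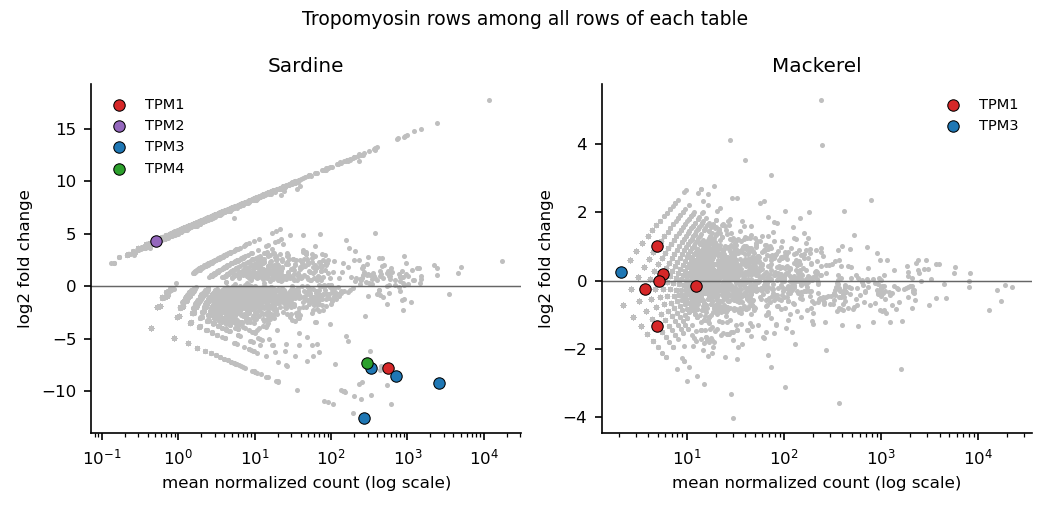
Log2 fold change against mean normalized count (log scale) for every row of the sardine (left) and mackerel (right) table in grey, with tropomyosin rows in colour; the panels have different scales. The 6 called sardine rows lie at means of 273 to 2553 and fold changes of -7.28 or lower, TPM2 lies on the line of rows at 0 on the negative side, and the mackerel rows lie at means of 12.3 or lower and fold changes of -1.32 to 1.003.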

How the data were processed

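Per the labels, RNA with an integrity number above 7 was made into TruSeq libraries. The submitters' processing notes name the build GRCz10 (zebrafish), DESeq2 and CASAVA 1.8. How reads were aligned, counted and filtered is not given in the sources used here. Per the file headers the deposited columns hold a normalized count averaged over libraries (a signal), the log2 fold change and its SE (log2), the Wald statistic (a score) and p-values, raw and adjusted, all by the authors' DESeq2 comparison. Sardine rows carry zebrafish RefSeq names and mackerel rows fugu gene model numbers. Depth per fish is unknown, and 0 value columns were left unmapped.

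Rows were selected by symbol. Whole numbers were solved from the means with Python 3.11.15, numpy 2.4.6 and scipy 1.17.1. All 9191 mackerel rows had a solution (steps 0.455 and 0.563, constant 1.66, which the table does not explain). Where several pairs of numbers fitted a mackerel mean, the pair nearest the fold change was taken. In 0 rows did another pair come close to it in fold change. Each of the 5123 sardine rows of mean 5 or less had exactly 1 solution. Of 599 more abundant sardine rows with few positive-side reads, 83.5% had 1 solution within 0.1 of the fold change, against 0.167% of means moved off the grid. Elsewhere the negative-side number was estimated from mean and fold change. A recovered library was not matched to a fish; libraries are numbered by step size. The solver and the exact test were tested on simulated data. Floors are 3 counts per library, or per side where a side is 1 number. The exact binomial test used the expected positive share of 55.3%. Named were all tropomyosin rows, the 5 rows nearest in fold change, and rows from the 3 most abundant of each of 8 lists. Some further rows of these lists that differed from the named ones are given beside them. Members and lists were chosen with earlier results of these data known. Alternatives were other thresholds, filters on low values, curated records, the exact test and, added after seeing the data, each positive-side library left out. Counting error is that of a log ratio of 2 Poisson counts. No tropomyosin sequence is held by the files used here.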

Additional observations from a re-analysis of the deposited data

Results flagged for a closer look

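In 2 of the 5 sardine tropomyosin rows with resolved positive-side reads, 1 library stood apart from the other 4, and it was the second library both times. For TPM1 NM_200934.2 it had 12 reads where the others had 2 to 5, and its gap to the next library was 0.81 of the whole range of normalized counts (critical value 0.71). For TPM3 NM_001002119.1 it had 7 reads where the others had 1 or 2, with a gap of 0.748 of the range. For normally distributed values chance flags about 1 in 20 groups, and that rate was not checked for read counts as small as these. In TPM3 NM_131105.2 and TPM4 NM_199675.1 the second library, with 5 and 6 reads, was not apart from the others, and the normalized counts of these rows allow for depth.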

How the results depend on the processing

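In sardine the count of called tropomyosin rows (6) stayed between 5 and 7 at thresholds of 0.01 and 0.1, with a mean of at least 10, with reads on both sides and in curated records, and the 6 negative calls fell to 5 only where the row at 0 on the positive side was left out by construction; TPM2 was called at 0.1. The median fold change ranged from -8.16 to -7.75. All called sardine rows (3071) numbered 1513 at 0.01, 4779 at 0.1, 756 at a mean of at least 10, 1192 with reads on both sides and 1854 in curated records, each a smaller set or another threshold. In mackerel the 2 tropomyosin calls became 1 at 0.01, 0 at a mean of at least 10, which leaves 1 row, and 0 by the exact binomial test; the median ranged from -0.16 to 0.06 on the log2 scale, where the middle row alone has an SE of 0.35, changing sign with a pseudocount of 0.5 or 1 read. All called mackerel rows (1570) numbered 882 at 0.01, 722 at a mean of at least 10 and 374 by the exact test. Leaving out each positive-side sardine library in turn, an alternative chosen after seeing the data, gave log2 ratios of levels of -8.78 to -8.47 for TPM3 NM_131105.2, -8.38 to -7.71 for TPM1, -8.35 to -7.70 for TPM3 NM_001002119.1 and -8.16 to -6.98 for TPM4; the lowest values of TPM1 and NM_001002119.1 were without the second library and that of TPM4 without the fourth. No paired analysis was possible because neither table holds a value per fish and fish carry no shared number; for the same reason no named fish was left out. In mackerel under 10 recovered reads lay behind 578 of these 1570 calls, and behind both tropomyosin calls.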

Other observations

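Within the positive side of sardine the resolved rows of the muscle lists did not rank the 5 libraries alike. The resolved tropomyosin rows summed to 15, 31, 9, 15 and 7 reads over the 5 libraries, highest in the second. They leave out the most abundant TPM3 row, which had 38 to 43 positive-side reads and 35.4% of the positive-side tropomyosin counts. Its reads could not be placed, so the order of the libraries over all tropomyosin rows is not known. Thin filament partners summed to 15, 14, 18, 30 and 23 reads, highest in the fourth after scaling (39.1). Thick filament and Z-disc genes had 12, 14, 4, 5 and 6 reads, highest in the second (12.3). Smooth muscle contractile genes had 15, 24, 19, 19 and 15 reads and lay between 12.3 and 24.8 after scaling. Non-muscle actin filament genes, with 88, 102, 54, 50 and 54 reads, lay between 65.2 and 89.4 after scaling. These are sums over the resolved rows, 6 of 7, 18 of 25, 18 of 26, 10 of 12 and 23 of 32. Differences between libraries were not tested against counting error, which is large for such small sums.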
